A study of Bos taurus with 12 samples.

Results

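CDC25C, FBXO5 and CKS2 are 3 regulators of M phase, the part of the cell cycle in which chromosomes condense and separate. They were taken from a microarray series of cattle oocytes as every probe set that the platform annotation assigns to 1 of these 3 symbols. The array carries 1 probe set for each, so the members were 3 of 24128 probe sets and 3 of the 9155 genes named on the array. The platform gives them the Entrez gene identifiers 507731 (CDC25C), 515080 (FBXO5) and 767985 (CKS2). The genes were picked from a list of meiotic genes because, in 9 of the arrays, their maturation values had unadjusted p under 0.05 in limma and the same sign at both donor ages. Their maturation values are therefore given as a description, without a test. The comparison between ages was not used for the choice and was tested.

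The series profiled Japanese Black cattle oocytes on 12 Affymetrix bovine arrays, 3 for each of 4 groups. The groups were adult cows and prepubertal heifers aged 9 to 12 months, and from each donor type oocytes were taken with an intact germinal vesicle (GV) or as eggs in metaphase II (MII). All oocytes came from follicles of 2 to 8 mm, and ovaries of cows came from an abattoir while those of heifers were removed on farms, so source and age cannot be told apart. GV oocytes were taken directly after aspiration, and MII oocytes after 20 to 22 h of culture in a maturation medium with fetal bovine serum, chosen by their polar body. Each array held amplified, biotin-labelled RNA of 50 pooled oocytes stripped of cumulus cells. The labels call the pools biological replicates but do not name their animals. Where pools share donors, p-values measure only the spread between these samples.

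At GV the oocyte nucleus is intact and the cell is held in prophase of the first meiotic division. Entry into M phase is driven by the kinase CDK1 bound to cyclin B. CDC25C is a phosphatase that activates CDK1 by removing inhibitory phosphates, which the kinases WEE1, WEE2 and PKMYT1 add. CKS2 is a small protein that binds CDK1 and helps it to recognise substrates already phosphorylated, and female mice without it are sterile because oocytes stop at metaphase of the first division. FBXO5, also called EMI1, inhibits the anaphase-promoting complex, the ubiquitin ligase that marks cyclin B and securin for destruction. Its relative FBXO43 (EMI2) keeps this ligase off in the MII egg until fertilisation.

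Of the 12 arrays, 3 did not carry an oocyte profile. The label was checked with 8 oocyte genes found on the array, GDF9, BMP15, ZP2, ZP3, ZP4, NLRP5, KPNA7 and OOEP. In 9 arrays the median of these genes minus that of the array was 5.78 to 8.51 on the log2 scale. The difference was -0.45 in replicate 1 of the GV prepubertal group, -0.11 in replicate 1 of the MII prepubertal group and 0.70 in replicate 1 of the GV adult group. The 2 prepubertal arrays also had bright cumulus and granulosa genes: the summed linear signal of 14 such genes was 181857 and 279867, against 2359 to 16452 in the 9 arrays. GV adult replicate 1 had 6996. Each result is given with all 12 arrays and with the 9.

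CDC25C was bright at GV and dimmer at MII in the 9 arrays. Its log2 signals at GV were 11.73 and 12.08 in adult replicates 2 and 3 and 12.46 and 12.37 in prepubertal replicates 2 and 3. At MII they were 10.17, 9.94 and 10.41 in adult replicates 1 to 3, and 10.34 and 10.60 in prepubertal replicates 2 and 3. All 4 GV values lay above all 5 MII values, and the closest pair was more than 1 log2 unit apart. The mean was 12.16 (SD 0.33, n = 4) at GV and 10.29 (SD 0.25, n = 5) at MII, which is 3.65 times lower on the linear scale. By age, MII minus GV was -1.73 (SE 0.71) in adults and, in prepubertal donors, -1.94 (SE 0.77).

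FBXO5 had the widest gap between the stages and the widest scatter within them. At GV it read 12.92 and 12.28 in adult replicates 2 and 3 and 11.32 and 12.41 in prepubertal replicates 2 and 3. At MII the adult arrays read 8.63, 10.02 and 9.39, and the prepubertal ones 8.54 and 9.98 for replicates 2 and 3. Again every GV value lay above every MII value. The lowest MII values came from adult replicate 1 and prepubertal replicate 2. The mean was 12.23 (SD 0.67, n = 4) at GV and 9.31 (SD 0.71, n = 5) at MII, or 7.58 times lower. MII minus GV was -3.25 (SE 0.87) in adults and, in prepubertal donors, -2.61 (SE 0.95).

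CKS2 ran the other way, with the brightest signals at MII. At GV it read 13.07 and 12.27 in adult replicates 2 and 3 and 12.79 and 12.39 in prepubertal replicates 2 and 3. At MII the adult arrays read 14.23, 13.89 and 14.001, and prepubertal replicates 2 and 3 read 13.82 and 13.96. The 5 MII values fell within a narrow band and all lay above the GV values. The mean was 12.63 (SD 0.37, n = 4) at GV and 13.98 (SD 0.16, n = 5) at MII, or 2.55 times higher. MII minus GV was 1.37 (SE 0.46) in adults and, in prepubertal donors, 1.30 (SE 0.50). More than 98% of probe sets were dimmer than CKS2 on each of these MII arrays, from 98.6% to 99.5%.

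**Figure D1:**
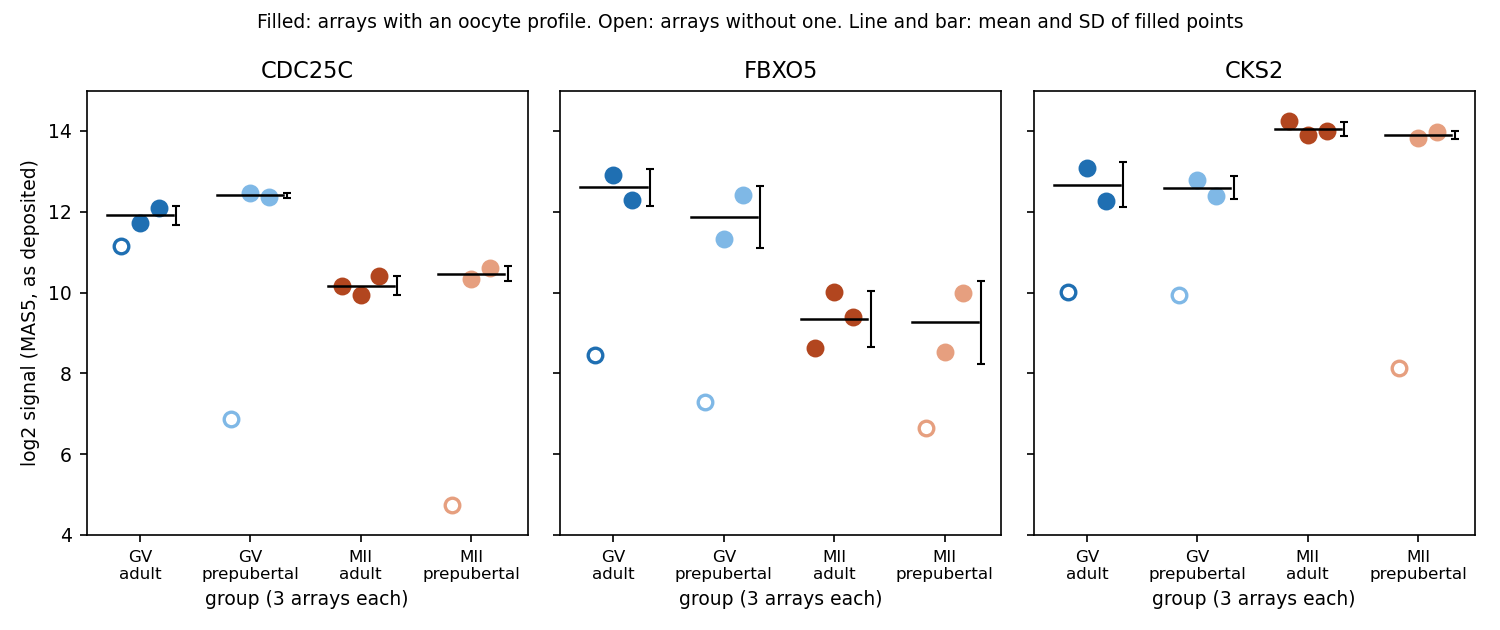
Log2 signal (y axis) of CDC25C, FBXO5 and CKS2 on each of the 12 arrays by group (x axis). Filled points are the 9 arrays with an oocyte profile, with their mean (line) and SD (bar), and open points are the 3 arrays without one. Filled CDC25C and FBXO5 points lie lower at MII and filled CKS2 points higher, while all open points but CDC25C in GV adult replicate 1 lie more than 2 log2 units below the mean of the filled points of their stage.

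Separation of this kind was not rare among the 14409 probe sets bright enough to be kept. Over the 9 arrays, MII lay above GV without overlap for 15% of them in adults and 19.4% in prepubertal donors, and below for 13.1% and 20.8%. MII lay above GV without overlap at both ages for 5.79% of them over the 9 arrays, as for CKS2, and below for 5.22%, as for CDC25C and FBXO5. With all 12 arrays CKS2 stayed above in adults, as 8.11% did, and CDC25C below, as 7.19% did. FBXO5 overlapped in adults and all 3 genes in prepubertal donors, where 3.66% lay above and 6.05% below. Since the members were chosen for these values, nothing is read from these shares.

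The scatter within groups was small for CDC25C and CKS2. It enters the p that chose the genes, so it is a description too. The residual SD over the 9 arrays was 0.20 for CDC25C, 0.31 for CKS2 and 0.75 for FBXO5, against a median of 1.498 over all kept probe sets. Bright probe sets scatter less. Among the 916 probe sets within 0.5 log2 units of the mean of CDC25C, the median was 0.90, and 0.44% had a smaller SD. Among the 280 around CKS2 it was 0.54, and 11.4% were smaller. Among the 1019 around FBXO5 it was 0.98, and 28.4% were smaller. limma draws such SDs towards those of other probe sets, and the SE of CDC25C above is larger than its own scatter for this reason.

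On every array without an oocyte profile, each of the 3 genes lay below its lowest value among the oocyte arrays of that stage. CKS2 was still brighter than most probe sets on these arrays, with 70.5% to 85.8% of them dimmer. In GV prepubertal replicate 1 CDC25C read 6.87, FBXO5 7.29 and CKS2 9.95, a difference of -5.29, -4.94 and -2.68 from the mean of the 4 GV oocyte arrays. In MII prepubertal replicate 1 they read 4.74, 6.65 and 8.13, a difference of -5.55, -2.66 and -5.85 from the mean of the 5 MII arrays. The array's median was 6.52 there, so CDC25C was below it and FBXO5 close to it. In GV adult replicate 1 CKS2 read 10.00 and FBXO5 8.45, but CDC25C read 11.14, a difference of -1.01 from the GV mean. That array had the highest median of all, 8.30, and 98.1% of its probe sets were dimmer than CDC25C. In a pool, fewer oocytes and less RNA per oocyte cannot be told apart.

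With all 12 arrays the maturation values of the 3 genes were less even. For CDC25C they were -1.48 in adults and -2.00 in prepubertal donors (SE 1.55 each), and for FBXO5 -1.87 and -1.95 (SE 1.43 each). CKS2 read 2.26 (SE 1.48) in adults and, in prepubertal donors, 0.26 (SE 1.48). The last value rests on replicate 1: CKS2 was 9.95 at GV and 8.13 at MII in the 2 prepubertal arrays without an oocyte profile, opposite to the other pairs. Without MII prepubertal replicate 1 it read 2.18, and without MII prepubertal replicate 3 it read -0.73. Without MII prepubertal replicate 1, CDC25C in prepubertal donors read -0.09, because the dim GV replicate 1 then stood alone. Without GV prepubertal replicate 1 it read -3.85. FBXO5 in adults read -3.25 without GV adult replicate 1 and -1.02 without GV adult replicate 2. In prepubertal donors it read -3.48 without GV replicate 1, -0.92 without GV replicate 3 and -1.08 without MII replicate 1. CKS2 in adults read 1.37 without GV adult replicate 1.

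Cumulus and granulosa genes did not all move one way between the stages in the 9 arrays. The median of the 14 genes minus the array's median was -2.08 to -0.24 in the 4 GV arrays. At MII it was 0.71 and -0.13 in prepubertal replicates 2 and 3, and 0.03, 0.08 and -1.28 in adult replicates 1 to 3. All MII arrays but adult replicate 3 thus lay above the GV arrays. PTX3, which cumulus cells secrete into their expanded matrix, read 1.92 to 4.46 at GV and 5.40 to 8.74 at MII. TNFAIP6, another gene of the expanded matrix, ran the other way, at 4.56 to 7.41 and 0.29 to 4.28. The remaining genes of the list overlapped between the stages. INHA, which encodes an inhibin subunit made by granulosa cells, overlapped, at 2.50 to 4.89 and 0.66 to 6.44. None of the 14 genes was at 0. The part of such cells in the values of the 3 genes was not tested. In the 2 arrays where these genes were brightest, all 3 members were dimmer than in the oocyte arrays of the same stage. Those 2 arrays lacked an oocyte profile, so their values do not show what such cells add in the 9 arrays.

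Titles of the first and second GV pool of each age carry a letter b that no MII title has, and its meaning is not given. Against GV replicate 3 alone, which lacks the letter, the values over the 9 arrays kept their signs. CDC25C read -1.91 in adults and -1.90 in prepubertal donors, FBXO5 -2.93 and -3.15, and CKS2 1.77 and 1.504. Each rests on a single GV array.

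Differences between the genes on the same array do not change when all its log2 signals are shifted by the same amount. Quantile normalization is no such shift and can change them. CKS2 minus FBXO5 was -0.02 to 1.47 log2 units on the 4 GV oocyte arrays and 3.88 to 5.60 on the 5 MII arrays. CKS2 minus CDC25C was 0.02 to 1.34 at GV and 3.36 to 4.07 at MII. A gap between the stages in these differences follows from the choice of 1 gene that was higher and 2 that were lower at MII, so only its size is described. CDC25C minus FBXO5 overlapped, at -1.19 to 1.13 and -0.08 to 1.80. The shift of CKS2 against FBXO5 from GV to MII was 4.63 in adults and 3.91 in prepubertal donors, and against CDC25C 3.11 and 3.24. In replicate 1 of the prepubertal groups CKS2 minus CDC25C was 3.08 at GV and 3.39 at MII, with no such gap. Hybridisation differs between probe sets, so these values describe shifts and not relative amounts of the mRNAs.

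**Figure D2:**
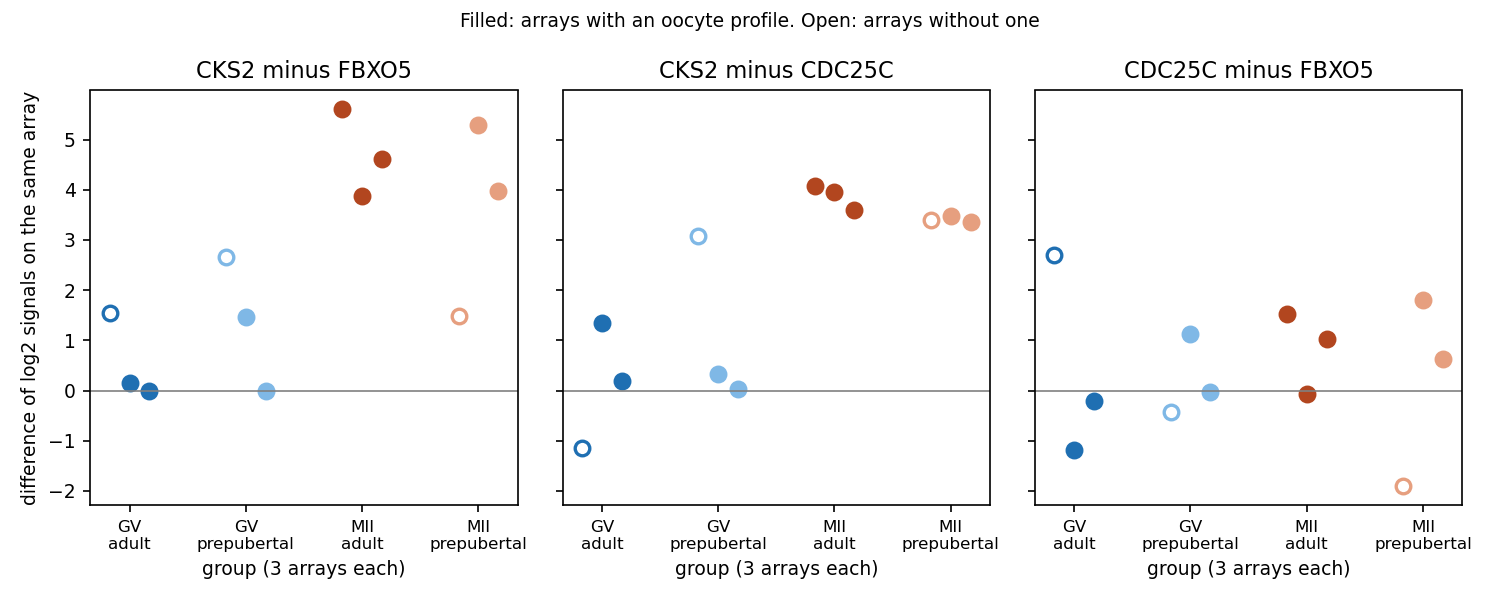
Difference of log2 signals of 2 of the genes on the same array (y axis) by group (x axis), filled for the 9 arrays with an oocyte profile and open for the 3 without. Filled points of CKS2 minus FBXO5 lie at or below 1.47 at GV and at or above 3.88 at MII, while those of CDC25C minus FBXO5 overlap between the stages.

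Between the ages, none of the 3 genes passed the threshold at either stage. At GV, prepubertal minus adult over 12 arrays was -1.09 (SE 1.55) for CDC25C, -0.88 (SE 1.43) for FBXO5 and -0.07 (SE 1.48) for CKS2, each with adjusted p = 1.0 in limma. At MII it was -1.61 (SE 1.55), -0.96 (SE 1.43) and -2.07 (SE 1.48), with adjusted p = 1.0 in limma for each. Of the 3 arrays left out of the next comparison, 2 were prepubertal and 1 adult. In this test 0% of the 14409 probe sets were called at either stage, with 362 at unadjusted p under 0.05 at GV and 383 at MII.

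Over the 9 arrays the intervals of the age differences were narrower. The scatter that sets their width also entered the p that chose the genes, so the widths are a description. At GV they were 0.50 (95% interval -1.15 to 2.16) for CDC25C, -0.74 (-2.76 to 1.29) for FBXO5 and -0.08 (-1.15 to 0.99) for CKS2. At MII they were 0.30 (-1.21 to 1.81), -0.09 (-1.94 to 1.76) and -0.15 (-1.13 to 0.83). Adjusted p was 1.0 in limma for all 6, and 0% of probe sets were called, with 668 and 369 at unadjusted p under 0.05. Averaged over the stages, the narrowest interval was that of CKS2, at -0.12 (-0.84 to 0.61). CDC25C read 0.40 (-0.72 to 1.52) and FBXO5 -0.41 (-1.78 to 0.96).

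In order of level over the 9 arrays, CDC25C stood highest in GV prepubertal arrays (12.41, SD 0.06, n = 2), then in GV adult (11.91, SD 0.25, n = 2), MII prepubertal (10.47, SD 0.19, n = 2) and MII adult arrays (10.17, SD 0.23, n = 3). At GV the prepubertal values lay above the adult ones without overlap, as for 16.2% of all kept probe sets in that direction, and the MII neighbours overlapped. FBXO5 ran from GV adult (12.60, SD 0.45, n = 2) and GV prepubertal (11.86, SD 0.77, n = 2) to MII adult (9.35, SD 0.69, n = 3) and MII prepubertal arrays (9.26, SD 1.02, n = 2). CKS2 ran from MII adult (14.04, SD 0.17, n = 3) and MII prepubertal (13.89, SD 0.10, n = 2) to GV adult (12.67, SD 0.57, n = 2) and GV prepubertal arrays (12.59, SD 0.28, n = 2). For FBXO5 and CKS2 both pairs of neighbours of 1 stage overlapped.

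**Figure D3:**
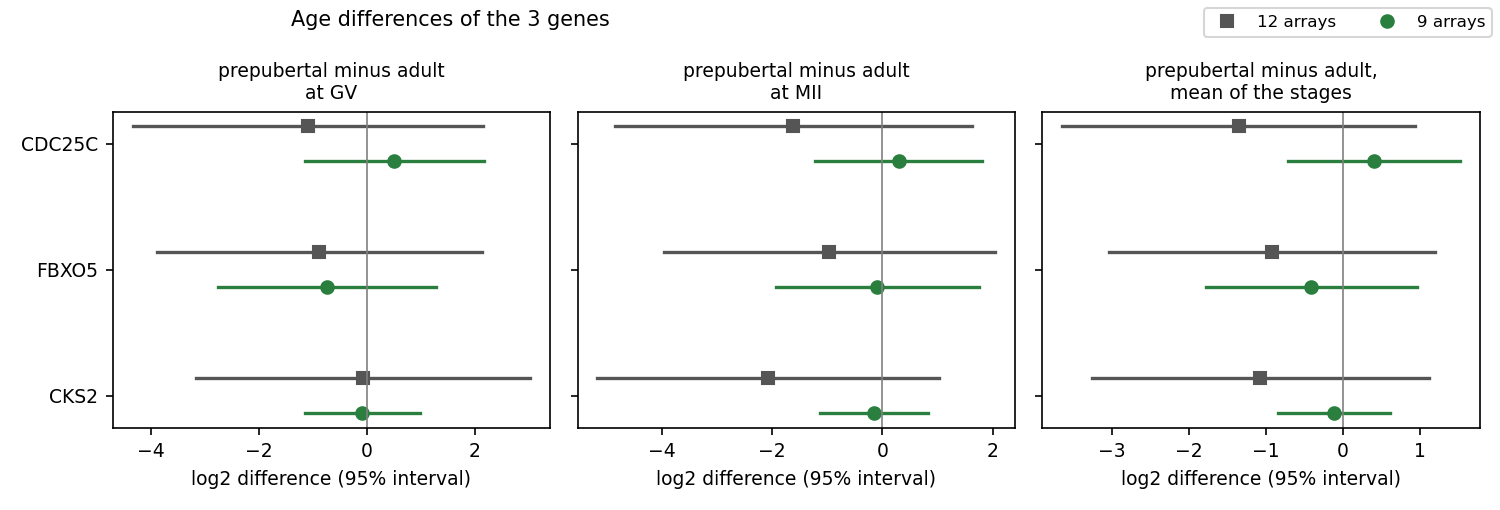
Prepubertal minus adult difference in log2 signal (x axis) with its 95% interval for each gene (y axis), at GV, at MII and averaged over the stages. Grey squares are fits of 12 arrays and green circles fits of 9 arrays. All intervals include 0, and those of the 9 arrays are narrower.

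For CDK1, on which CDC25C and CKS2 act, and for the B-type cyclins and CKS1B, values at GV and MII overlapped when the ages were pooled. CDK1 read 9.79 to 11.63 on the 4 GV arrays and 8.12 to 10.70 on the 5 MII arrays. In prepubertal donors alone its MII values lay below those at GV, as for 20.8% of all kept probe sets. Its MII minus GV value was -0.90 (SE 0.94) in adults and, in prepubertal donors, -1.34 (SE 1.03). The cyclin CCNB1 read 12.77 to 13.82 at GV and 13.38 to 14.03 at MII. CCNB2, a second B-type cyclin, read 13.21 to 14.52 and 12.37 to 13.38. CKS1B, the close relative of CKS2, read 14.37 to 15.44 at GV and 14.37 to 15.64 at MII, with MII minus GV at -0.25 (SE 0.39) in adults and, in prepubertal donors, 0.25 (SE 0.43). Its values covered much the same range at both stages. CKS2 was chosen for its maturation values, so nothing is read from setting CKS1B beside it.

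Kinases upstream of CDC25C and of cyclin B did not pass the threshold either. PLK1, which phosphorylates CDC25C and marks FBXO5 for destruction, read 8.84 to 10.41 at GV and 9.06 to 11.19 at MII. AURKA, which activates PLK1 with BORA, was the brightest of these genes, at 16.34 to 16.54 and 16.14 to 18.04. MOS, the kinase that starts the MAP kinase cascade of egg arrest, read 10.81 to 12.62 and 12.05 to 13.29. In prepubertal donors alone, MII lay above GV without overlap for PLK1 and MOS, as for 19.4% of all kept probe sets. It lay below for AURKA, as for 20.8%. In adults all of these overlapped. MNAT1, a subunit of the kinase that activates CDK1, had MII minus GV at -1.06 (SE 0.43, adjusted p = 0.348 in limma) in adults and, in prepubertal donors, -0.04 (SE 0.47).

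Across the machinery of M phase, a list of 91 other genes in 7 groups, no gene passed the threshold in either maturation comparison or between the ages. Of the 91, 59 had a probe set named here and 55 were kept. With limma, 0 of 55 were called over 12 or 9 arrays, in either direction. In adult maturation over the 9 arrays, 0.118% of all probe sets were called, and 5 of the 55 had unadjusted p under 0.05 (3 higher, 2 lower), against 1645 of 14409. In prepubertal maturation 0% were called, and 2 of the 55 had unadjusted p under 0.05, both higher, against 1007. The median MII minus GV value of the list was 0.10 in adults and 0.48 in prepubertal donors, beside 0.05 and -0.14 over all kept probe sets. Over 12 arrays it was 1.08 and 0.33, beside -0.10 and -0.29. Of the 55, 4 and 0 had unadjusted p under 0.05 there, against 1143 and 492 of 14409.

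By group, the 14 kept genes of CDK1 activation had a median MII minus GV value of -0.08 in adults and 0.06 in prepubertal donors over the 9 arrays. It was -0.57 and 0.05 for 14 genes of the anaphase-promoting complex and its enzymes, which FBXO5 inhibits. It was 0.69 and 0.62 for 9 genes of PP2A, a phosphatase that opposes CDK1, and of its inhibitors. The 8 genes that hold CDC25 proteins inactive had -0.29 and 0.75. The 4 spindle checkpoint genes had 0.48 and 0.74, and the 4 substrates and guardians of anaphase 0.95 and 1.06. Of the SCF ligase that destroys FBXO5, only CUL1 and FBXW11 were kept. CUL1 had 2.01 (SE 1.31) and 0.02 (SE 1.44), and FBXW11 -1.48 (SE 1.69) and -0.53 (SE 1.85). The negative adult value of FBXW11 rests on MII adult replicate 3 (3.89), since replicates 1 and 2 (11.36, 11.30) lay above both GV adult arrays (11.26, 9.41). FBXO43, BTRC, FZR1, CDC25A, CDC25B, WEE2 and PKMYT1 had no probe set named here, and WEE1 was too dim to be kept.

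The genes of the lists with the largest values over the 9 arrays came from several groups. ANAPC7, a scaffold subunit of the anaphase-promoting complex, read 12.54 and 12.96 in GV adult replicates 2 and 3, while its MII adult values were 10.05, 10.77 and 6.25. It read 13.07 and 12.94 against 11.12 and 10.93 in prepubertal replicates 2 and 3. Its MII minus GV value was -3.73 (SE 1.07, adjusted p = 0.174 in limma) in adults and, in prepubertal donors, -1.98 (SE 1.18), and MII adult replicate 3 was far lower than the others. CDC16, another subunit, read -2.28 (SE 1.51) and -1.75 (SE 1.66). CDC23, also a subunit, read 2.08 (SE 1.68) and -2.15 (SE 1.84). CDC20, which activates the complex, read 0.06 (SE 0.91) and 0.70 (SE 0.995).

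YWHAG, a 14-3-3 protein of the family that binds phosphorylated CDC25, had higher values at MII. It read 10.34 and 10.08 against 12.36, 12.75 and 13.20 in adults, and 9.59 and 10.98 against 12.08 and 12.25 in prepubertal donors. Its value was 2.56 (SE 0.70, adjusted p = 0.166 in limma) and 1.88 (SE 0.77, adjusted p = 0.682). BUB1B, a spindle checkpoint kinase, read 1.34 (SE 0.81) in adults and, in prepubertal donors, 2.13 (SE 0.88). ESPL1, the protease separase that cuts cohesin, read 2.08 (SE 0.83) and 1.22 (SE 0.91). ENSA, an inhibitor of PP2A, read 4.77 (SE 2.02) and 2.76 (SE 2.21), but its 2 GV adult values were 1.88 and 12.56. MAPK3, a MAP kinase, read -0.61 and -1.82 and was dim, at 4.61 to 7.91 over the 9 arrays.

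GV and MII values were separated in the same direction at both ages for 8 of the 55 genes. They were higher at MII for BUB1B, ESPL1, PPP2CA, PPP2CB and YWHAG, which is 9.09% of the list beside 5.79% of all kept probe sets. PPP2CA and PPP2CB are the catalytic subunits of PP2A. They were lower for ANAPC7, CCNA2 and CHEK1, which is 5.45% beside 5.22%. CCNA2 is cyclin A, and CHEK1 is a checkpoint kinase that inhibits CDC25 proteins. These 8 were named after their values were seen.

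**Figure D4:**
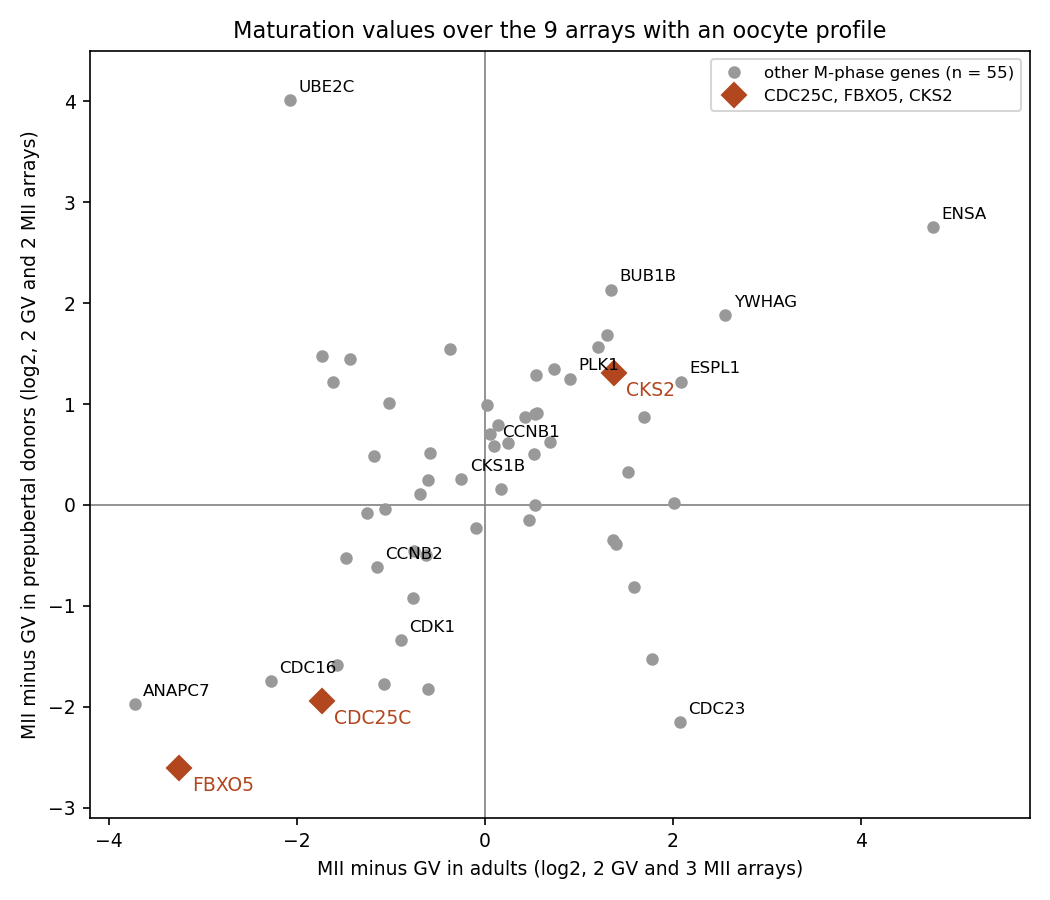
MII minus GV in adults (x axis) against MII minus GV in prepubertal donors (y axis), in log2 units over the 9 arrays with an oocyte profile, for 55 other M-phase genes (grey) and the 3 members (red diamonds), which were chosen for these values. CDC25C and FBXO5 lie in the lower left, CKS2 in the upper right, and CCNB1 and CKS1B near the centre.

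Genes with patterns most like each member were sought among kept probe sets with a gene symbol, by Pearson correlation over the 12 arrays. The values are descriptions, since all these genes share the stages and the 3 arrays without an oocyte profile. For CDC25C they were the protease CASP1 (r = 0.94 over 12 arrays and 0.88 over 9), GTSF1, a germ cell gene of the piRNA pathway (0.93 and 0.51), FBXO33 (0.92 and 0.79) and the helicase PIF1 (0.92 and 0.55). GTSF1 shared the dim readings of both prepubertal replicate 1 arrays, at 3.35 and 2.01, more than the step between the stages.

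For FBXO5 they were MTRFR (r = 0.93 over 12 arrays and 0.87 over 9), the metallothionein MT3 (0.92 and 0.87), ZFP36L1, which promotes mRNA decay (0.91 and 0.87), and KIT, the oocyte's receptor for the growth factor KITLG (0.89 and 0.89). KIT read 14.52 to 15.07 on the 4 GV oocyte arrays and 12.86 to 13.83 on the 5 MII arrays. For CKS2 they were STAT3 (0.99 and 0.95), UHRF1, a DNA methylation factor (0.98 and 0.79), NADK2 (0.97 and 0.88) and MTUS1 (0.97 and 0.84). STAT3 read 11.45 to 12.81 at GV and 13.60 to 14.12 at MII, and 10.13, 8.37 and 10.06 in GV and MII prepubertal replicate 1 and GV adult replicate 1.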

How the data were processed

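The authors deposited log2 signals per probe set, from 0 to 21.83. MAS5 is named in the submitters' processing notes, with no version in the sources used here. With the outer 2% trimmed at each end, linear means were 500 on every array, so the values were used as deposited. Leaving out 112 control probe sets and those with a 12-array mean at or under the 40th percentile (5.57) left 14409 of 24128, all 3 members among them. Gene symbols are those of the platform annotation, and 99.8% were matched by Entrez identifier to cattle RefSeq genes. Sequences and coordinates were not used here, and the sequence search that had been planned was not run.

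limma 3.58.1 (R 4.3.3) fitted group means on all 12 arrays, with an intensity trend in the variance. Benjamini-Hochberg adjustment ran across all 14409 probe sets, with a threshold of 0.05. Fits of 9 arrays leave out those whose oocyte genes had a median under 2 log2 units above the array median. The fits were tested on simulated data.

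Replicate numbers recur in the groups. Deviations from group means of same-numbered GV and MII prepubertal arrays correlated at 0.609, 0.149 and 0.306, all over 0.1. A fit with these as pairs is therefore given in the closing section. The 0.609 belongs to the replicate 1 arrays, which both lack an oocyte profile and also enter the group means. No label states a pairing, and replicates 2 and 3 correlated as well crosswise (0.145 and 0.307). The fits in the results do not use pairs. For the other pairs of groups the values ran from -0.105 to 0.383, with at least 1 in each under 0.1.

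Members, gene lists, left-out arrays and rules were chosen with earlier results of these data known. Named beside the members were CDK1 and its listed regulators, direct partners, the 3 list genes with the highest and the 3 with the lowest value per maturation comparison over 9 arrays, any called gene, and the 4 genes most correlated with each member. Alternatives changed the scaling, the filter, the pseudocount (32), the trend, the groups or arrays in the fit (8 arrays also lack MII adult replicate 3) and the covariates (replicate number, letter b), or left out each array.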

Additional observations from a re-analysis of the deposited data

How the results depend on the processing

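No age difference of CDC25C, FBXO5 or CKS2 passed the threshold under any alternative (adjusted p in limma 0.803 to 1.0), and every maturation value of CDC25C and FBXO5 stayed below 0. Signs of age differences turned mainly for CDC25C: at GV it read 0.50 over 9 arrays and over 8, 0.67 and 0.18 with quantile normalization and median centring of the 9, and 0.50 with the replicate block over the 9. At MII these values were 0.30, 0.42, 0.20, 0.67 and 0.30, and averaged over the stages 0.40, 0.46, 0.44, 0.42 and 0.40. FBXO5 at MII read 0.28 with median centring of the 9. CKS2 at GV read 0.24 with quantile normalization of 12 arrays and 0.13 of the 9, at MII 0.22 with median centring of the 9, and averaged 0.028 with quantile normalization of the 9. The causes were not tested. The maturation value of CDC25C in adults moved to -1.98 with quantile normalization, -0.70 with median centring and -2.60 with the letter b as covariate. With that covariate CKS2 in prepubertal donors read -0.32, against 0.26 over the 12 arrays without it.

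Leaving out each array in turn, of the 12 or of the 9, CDC25C ranged from -2.04 to 0.76 at GV, -2.63 to 0.43 at MII, -1.86 to 0.49 averaged, and -1.91 to -1.27 in adult maturation. FBXO5 ranged from -2.26 to 0.65 at GV and -1.75 to 0.63 at MII, -3.59 to -1.02 in adult and -3.48 to -0.92 in prepubertal maturation. CKS2 ranged from -0.96 to 0.81 at GV, -3.07 to -0.06 at MII, -1.57 to 0.083 averaged, and 0.97 to 2.91 in adult maturation. The highest GV values came without GV prepubertal replicate 1. Of the other M-phase genes 0 were called in adult maturation except 1 without GV adult replicate 3 in the 9-array fit (range 0 to 1): ENSA, whose lone GV adult value was then 1.88.

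With the replicate block, CDC25C, FBXO5 and CKS2 read -2.00 (SE 0.82), -1.95 (SE 0.88) and 0.26 (SE 0.65) in the fit of the 6 prepubertal arrays, a setting added after seeing the data as were the fits of the 9 with a block or without 1 array; the block changed no call of these genes or of the other M-phase genes. Only the compared groups could not be fitted for the average over the stages, which uses all 4. Median centring moved the median change of all probe sets in adult maturation from -0.10 to 0.68. Precision is limited by 3 arrays a group, or 2 in 3 of the 4 groups over the 9 arrays.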

Other observations

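Some of the other M-phase genes had maturation values of opposite sign at the 2 ages over the 9 arrays, chosen here after their values were seen. UBE2C, the ubiquitin-conjugating enzyme that works with the anaphase-promoting complex, had MII minus GV at -2.08 (SE 1.97) in adults and at 4.01 (SE 2.15) in the prepubertal arrays. In adults it was 11.83 and 11.54 at GV and 12.80, 12.36 and 3.68 at MII, so the negative value rests on MII adult replicate 3. In prepubertal replicates 2 and 3 it was 7.41 and 10.60 at GV and 12.98 and 13.04 at MII. The difference between the 2 maturation changes was 6.08 (SE 2.91, adjusted p = 0.999 in limma).

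ANAPC4, a subunit of the anaphase-promoting complex, went from 9.49 and 8.05 in the GV adult arrays to 10.23, 10.81 and 10.63 in the MII adult arrays. In prepubertal replicates 2 and 3 it went from 10.82 and 10.89 (GV) to 9.40 and 9.25 (MII). The values at the stages did not overlap at either age. Of all kept probe sets, 15% lay above without overlap at MII in adults, and 20.8% below in prepubertal donors. Among the 55 genes SGO2 was separated in the same 2 directions. The difference between the changes was -3.31 (SE 1.33, adjusted p = 0.999 in limma). YWHAB, a 14-3-3 protein, had the opposite arrangement, with a difference of 2.03 (SE 0.93, adjusted p = 0.999). These 2 were the genes of the 55 with unadjusted p under 0.05 for this difference, against 441 of 14409 probe sets, and 0% of all probe sets were called.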
